A study of Mus musculus with 11 samples.

Results

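The proteasome subunit genes described here are the 38 genes, of 23835 named genes measured, whose symbol is Psma, Psmb, Psmc, Psmd or Psme followed by a number. Psmb8, Psmb9 and Psmb10, the catalytic subunits of the immunoproteasome, were left out by that rule and are given beside the results. There were 8 Psma genes (alpha ring), 6 Psmb genes (beta ring), 6 Psmc genes (base ATPases), 14 Psmd genes (non-ATPase subunits) and 4 Psme genes (activators). The rule reads symbols and no measured value, and Psmb3 and Psmb5 were not analysed here.

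RNA was read on Affymetrix expression arrays from mouse mammary tumour cells of the genotype MMTV-rtTA;TetO-Wnt1, in which a mammary tumour virus promoter drives the doxycycline-dependent activator of a Wnt1 transgene. The cells carried the fluorescent histone H2B-eGFP, grew orthotopically in female nu/nu mice, which lack a thymus, and were isolated as GFP-positive cells. All groups shared this genotype and this host, the tumours were first grown on doxycycline, whose withdrawal was the treatment, and no ages were given. There were 4 arrays of primary tumour cells, labelled untreated, on doxycycline. There were 3 arrays of residual lesion cells, labelled Wnt1 inhibition, 28 days after doxycycline withdrawal. The last group was 4 arrays of recurrent tumour cells, also labelled Wnt1 inhibition, with no time given. The series title calls the cells Wnt1-Prim1 and does not say how many tumours they came from. The labels name no animals, so the arrays of a group may be technical repeats, and p-values describe only how far these arrays differ. The host keeps its fibroblasts, endothelium and macrophages, so cells of those types may be present.

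The proteasome is the protease of the cytosol and nucleus that degrades proteins tagged with ubiquitin. Its core particle is a barrel of stacked rings, with alpha subunits at the ends that gate entry and beta subunits in the middle, some of which cut peptide bonds. The regulatory particle caps the barrel: its base of ATPases unfolds and threads substrates, and its non-ATPase subunits bind ubiquitin chains and remove them. Activators of the Psme group cap the barrel in its place and open the gate without ubiquitin. Dividing tumour cells depend on the proteasome to remove cyclins and other regulators, and proteasome genes are often transcribed together, through Nrf1 (Nfe2l1) when the protease is inhibited.

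Promoter sequences are shown for the 4 members that fell in residual cells, and for Psmb6 and Psmd12, which hold the antioxidant element. Sequences are from RefSeq on build GRCm38.p6, which matched 31 of the 38 members. Each is the 250 bases upstream of the annotated start, written 5′ to 3′ on the strand of the gene, and capitals mark matches to any of the motifs searched.
Psmd10, chrX:140956712-140956961, minus strand: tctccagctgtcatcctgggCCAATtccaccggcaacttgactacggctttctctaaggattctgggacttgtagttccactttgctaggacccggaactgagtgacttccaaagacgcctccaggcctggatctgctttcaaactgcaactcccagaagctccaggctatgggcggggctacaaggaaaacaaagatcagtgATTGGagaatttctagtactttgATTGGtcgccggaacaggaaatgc
Psmd14, chr2:61711444-61711693, plus strand: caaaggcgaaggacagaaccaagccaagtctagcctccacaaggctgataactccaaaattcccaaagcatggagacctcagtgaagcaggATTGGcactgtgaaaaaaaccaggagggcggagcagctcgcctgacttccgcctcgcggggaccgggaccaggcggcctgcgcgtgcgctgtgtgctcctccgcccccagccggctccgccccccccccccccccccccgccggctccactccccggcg
Psmd5, chr2:34870963-34871212, minus strand: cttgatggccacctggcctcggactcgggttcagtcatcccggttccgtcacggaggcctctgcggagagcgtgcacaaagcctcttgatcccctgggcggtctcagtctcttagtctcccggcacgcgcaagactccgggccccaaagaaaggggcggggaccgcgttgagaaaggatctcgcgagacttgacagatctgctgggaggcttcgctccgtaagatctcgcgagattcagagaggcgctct
Psmc4, chr7:28050093-28050342, minus strand: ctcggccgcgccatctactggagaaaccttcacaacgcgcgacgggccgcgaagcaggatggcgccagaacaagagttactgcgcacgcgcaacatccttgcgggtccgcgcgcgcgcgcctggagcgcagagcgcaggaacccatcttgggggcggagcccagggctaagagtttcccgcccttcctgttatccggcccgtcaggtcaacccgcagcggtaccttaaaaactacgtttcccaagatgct
Psmb6, chr11:70525107-70525356, plus strand: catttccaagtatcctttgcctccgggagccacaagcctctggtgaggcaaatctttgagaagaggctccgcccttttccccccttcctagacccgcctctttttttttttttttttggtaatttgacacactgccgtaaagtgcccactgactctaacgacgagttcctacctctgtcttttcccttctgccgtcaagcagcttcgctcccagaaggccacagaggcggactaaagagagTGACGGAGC
Psmd12, chr11:107479278-107479527, plus strand: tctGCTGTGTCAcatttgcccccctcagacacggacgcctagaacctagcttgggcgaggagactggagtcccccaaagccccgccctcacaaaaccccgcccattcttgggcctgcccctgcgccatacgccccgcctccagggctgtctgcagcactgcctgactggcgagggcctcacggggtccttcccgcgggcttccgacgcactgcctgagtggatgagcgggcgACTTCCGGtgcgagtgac

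The 4 motifs were TGACNNNGC, the antioxidant response element that Nrf1 binds with a small Maf protein, CCAAT, bound by NF-Y, CACGTG, an E-box, and CCGGAAGT, an element of ETS factors. Both strands were searched, no matches of different motifs overlapped, and a gene with several annotated starts counted if any of its promoters matched. The antioxidant element was in 4 members (Psmb6, Psmc6, Psmd9 and Psmd12), 12.9% of the 31, against 11.5% of 27025 genes. In Psmb6 its first base lay 9 bases before the start and in Psmd12 247 bases before it. CCAAT was in 12 members (38.7%, against 37.5% of the 27025 genes). It was in 6 of 10 core particle genes and in 5 of 17 regulatory particle genes. Psmd10 held 3 CCAAT matches, Psmd14 held 1, and Psmd5 and Psmc4 held no match to any of these motifs. The E-box was in Psma4, Psmd9 and Psme3 (9.68%, against 6.86%). The ETS element was in 5 members (Psmc1, Psmc2, Psmd6, Psmd12 and Psme4), or 16.1%. Its share was 3.23% of the 27025 genes and 4.29% of the 17776 of them on the array. It was in 0 of 10 core particle genes and in 4 of 17 regulatory particle genes, and no difference between these was tested. These are matches of letters only, and a promoter without one may still hold other forms of the same site.

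The array signals were log2 values made by the authors, and each array's median lay between 4.29 and 4.41. Their interquartile range was narrower on residual arrays (3.52 to 3.57) than on primary (3.73 to 3.81) and recurrent (3.67 to 3.74) arrays. As a measure of background, 1066 olfactory receptor genes had a 95th percentile of 3.96 to 4.38, and Wnt1 itself read 2.89 to 3.26 on every array, inside that range. Its probes may lie outside the transgene, so it checks nothing. Calls were made with limma at a Benjamini-Hochberg adjusted p under 0.05 over all 23835 genes: 1146 genes were higher and 1814 lower in residual than in primary cells (899 and 2333 with arrays centred on their medians), and 854 were higher and 523 lower in recurrent than in residual cells (693 and 634 with arrays scaled to one median and interquartile range). Of 8 fibroblast markers, 7 were higher in residual than in primary cells and 6 in recurrent than in primary cells, with summed linear signals of 1143 to 1560 on primary, 7624 to 12823 on residual and 6872 to 11104 on recurrent arrays. Of 8 macrophage markers, 3 were lower in residual and 1 in recurrent than in primary cells, with sums of 1044 to 1819, 453 to 727 and 630 to 1277 in the same order of groups. Of 8 epithelial markers Krt14 and Cldn4 were higher and Krt8 and Krt18 lower in residual than in primary cells, with sums of 2455 to 2995 on primary, 1662 to 2820 on residual and 1564 to 2878 on recurrent arrays. Epcam, Krt5, Cldn4 and Cldn7 averaged inside the olfactory range over the 11 arrays. Of 8 endothelial and 8 lymphocyte markers 0 were called in any comparison, and 6 and 7 of them averaged inside the background range. Endothelial sums were 90 to 126 on primary, 99 to 105 on residual and 109 to 1188 on recurrent arrays. The endothelial marker Cdh5 read 10.13 on recurrent 3, against 4.97, 5.09 and 4.66 on recurrent 1, 2 and 4. All 16 mitosis genes listed were lower in residual than in primary cells. The part of these markers in the proteasome results was not tested.

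Of the 38 members, 35 averaged above the olfactory range, and their lowest signal on any array was 6.12 (Psme2). The other 3 averaged inside it. Psma8, the alpha subunit of testis proteasomes, read 2.61, 2.62, 2.35 and 2.63 on primary, 3.12, 2.80 and 2.70 on residual and 2.70, 2.90, 2.70 and 2.70 on recurrent arrays. Psmb11, the catalytic subunit of the thymus cortex, read 3.24, 3.22, 3.07 and 3.60 on primary, 3.37, 3.45 and 3.38 on residual and 3.29, 3.35, 3.05 and 3.47 on recurrent arrays. Both stayed at background on all arrays. Psma5, an alpha ring subunit that every proteasome contains, read 2.95, 2.94, 2.25 and 2.73 on primary, 2.56, 2.40 and 1.56 on residual and 3.48, 2.42, 2.63 and 2.37 on recurrent arrays. Its signal is that of a probe set at background, so no change of Psma5 can be read here.

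Residual cells were set against primary cells to ask what a tumour cell's proteasome genes do after doxycycline withdrawal. Residual cells had lower signals than primary cells for nearly the whole complex: the log2 fold change was below 0 for 36 of 38 members, and for 10986 of all 23835 genes. The 36 include Psma5, at background, and of the 13712 genes above the olfactory range 7556 were below 0. Of the 38, 4 fell and 0 rose at the adjusted threshold, where 7.61% of all genes tested fell and 4.81% rose. Among the genes above the olfactory range on at least 3 arrays, 1782 of 13712 fell. The genes that fell were Psmd10, Psmd14, Psmd5 and Psmc4. Psmd14 and Psmc4 are subunits of the regulatory particle, and Psmd10 and Psmd5 are chaperones of its assembly. At an unadjusted p under 0.05, 23 of 38 members were lower and 1 (Psma8) was higher, against 13.9% and 11.9% of all genes. All 3 residual arrays lay below all 4 primary arrays for 25 of 38 members, against 13.7% of all genes, and above them for Psma8, against 11.1%. Of the 13712 genes above the olfactory range, the residual arrays lay wholly below for 3088 and wholly above for 1834.

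The sizes were modest. The median log2 fold change of the 35 members above background was -0.37, from -1.32 for Psmd10 to -0.10 for Psmd11, and all 35 were below 0, where 55.1% of the 13712 genes were and their median was -0.06. With arrays scaled to one interquartile range the members' median was -0.19, 30 of 35 were below 0 and only Psmd10 and Psmd5 were called. A second quantile normalization gave a median of -0.21 with 32 of 35 below 0, and centring on array medians gave -0.45 with 14 calls. These are signals from RNA of many cells, so fewer cells that use a gene and less of its RNA per cell cannot be told apart.

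**Figure D1:**
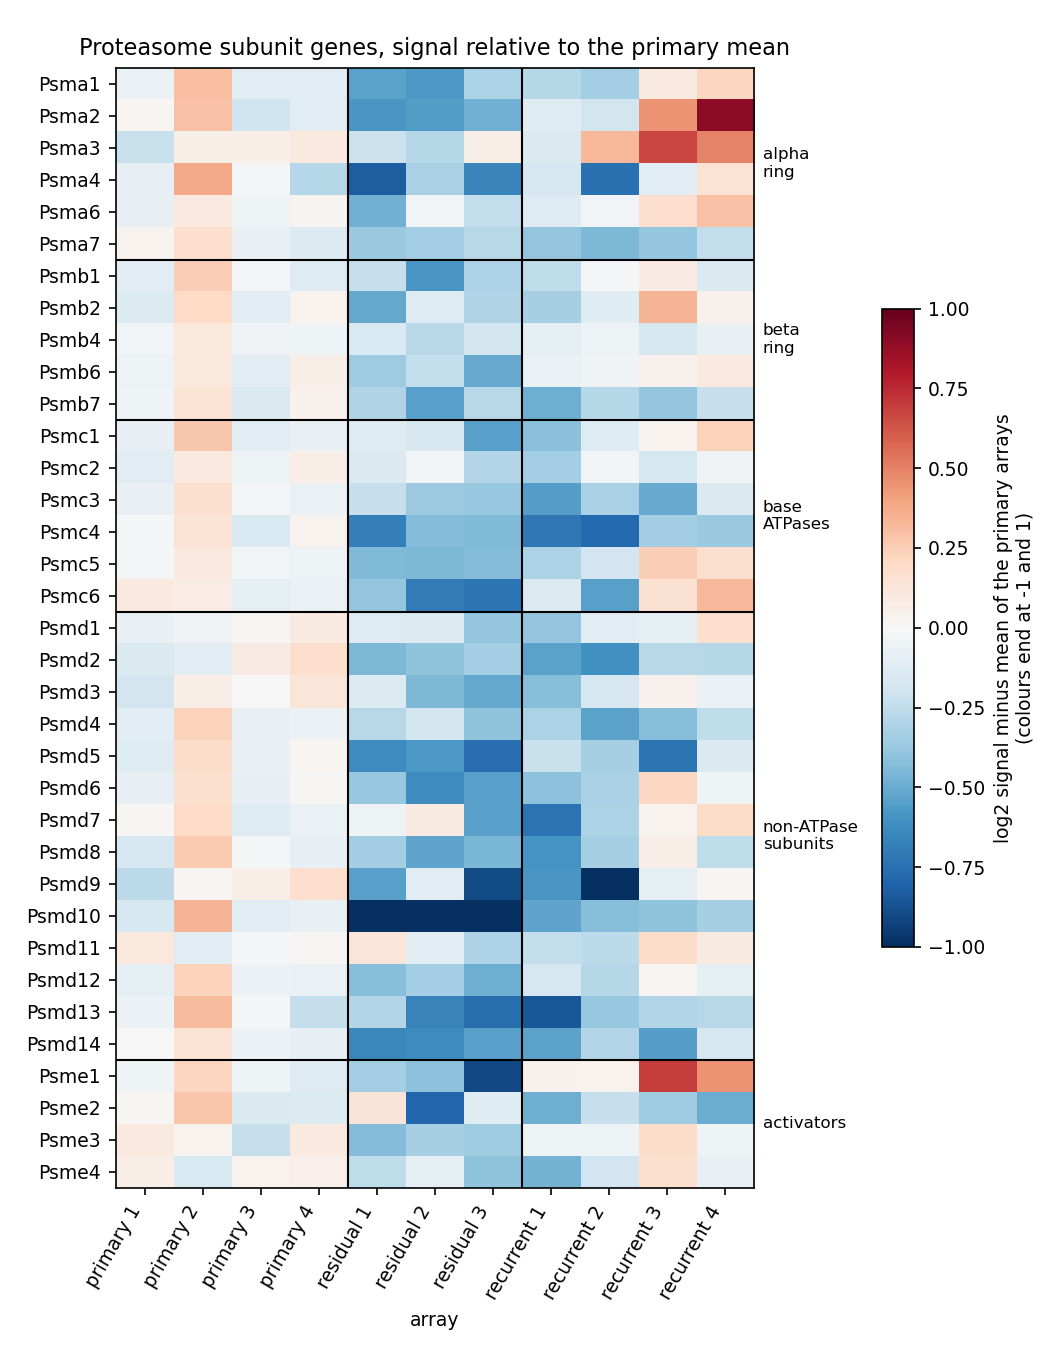
Heat map of the log2 signal of 35 proteasome subunit genes (rows, grouped by class) on each of the 11 arrays (columns), minus the mean of the 4 primary arrays; red is higher and blue lower, and colours end at -1 and 1. The 3 residual columns are mostly blue in every class, recurrent 1 and 2 are blue in most rows and more deeply so in the regulatory particle, and primary 2 is the reddest of the primary arrays.

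Among the non-ATPase subunits the largest difference was in Psmd10, also called gankyrin, a chaperone that holds the ATPase Psmc4 during assembly of the regulatory particle and is known as an oncoprotein of liver tumours. Psmd10 read 7.43, 6.77 and 7.52 on residual arrays, against 8.40, 8.90, 8.45 and 8.49 on primary arrays. The highest residual array lay well below the lowest primary array. The log2 fold change was -1.32 ± 0.19 (SE), a ratio of 0.401, with an adjusted p of 0.000933 in limma. It held in all 19 alternatives run, with adjusted p from 0.000633 to 0.00939. Psmd14, the deubiquitinase that takes ubiquitin chains off substrates, read 9.12, 9.13 and 9.22 on residual arrays, against 9.76, 9.90, 9.70 and 9.68 on primary arrays. These groups did not overlap, and its log2 fold change was -0.60 ± 0.13 (adjusted p = 0.00979, limma). It was at -0.40 and not called with arrays scaled to one interquartile range. Psmd5, another assembly chaperone of the base, read 6.83, 6.89 and 6.71 on residual arrays, against 7.34, 7.64, 7.39 and 7.48 on primary arrays. It too was lower on every residual array, with a log2 fold change of -0.65 ± 0.15 (adjusted p = 0.0162, limma). Without residual 3 only Psmd10 and Psmd14 were called among the members.

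Psmd9, the remaining chaperone with a Psmd symbol, read 6.72, 7.15 and 6.37 on residual arrays, against 7.004, 7.28, 7.33 and 7.43 on primary arrays. Its residual 2 array overlapped the primary arrays, and its log2 fold change of -0.52 ± 0.26 was not called (adjusted p = 0.236, limma). Of the subunits built into the particle, Psmd6, Psmd12 and Psmd13 had log2 fold changes of -0.51, -0.42 and -0.57 with no overlap and adjusted p of 0.0557, 0.0517 and 0.0693 in limma. Psmd1 and Psmd2, the large scaffolds of the base, had -0.22 and -0.40, and Psmd4, a ubiquitin receptor, had -0.29; none was called. At the other end Psmd11 read 8.67, 8.45 and 8.24 on residual arrays, against 8.66, 8.45, 8.54 and 8.56 on primary arrays. Its groups overlapped, with a log2 fold change of -0.10 ± 0.15 (adjusted p = 0.751, limma). Psmd7, the partner of Psmd14 in the lid, read 9.30, 9.43 and 8.80 on residual arrays, against 9.35, 9.54, 9.21 and 9.28 on primary arrays, and only residual 3 was low.

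In the ring of base ATPases, Psmc4 fell. It read 9.29, 9.54 and 9.53 on residual arrays, against 9.96, 10.11, 9.82 and 10.01 on primary arrays, a log2 fold change of -0.52 ± 0.15 (adjusted p = 0.0382, limma). The groups did not overlap, but this call was lost in 10 of 19 alternatives, with adjusted p up to 0.229, among them leaving out any 1 residual array or primary 1, 2 or 4. With arrays scaled to one interquartile range it was at -0.30, Psmc5 at -0.23 and Psmc2 at 0.066. Psmc6 read 8.93, 8.61 and 8.58 on residual arrays, against 9.41, 9.38, 9.21 and 9.25 on primary arrays, and Psmc5 read 9.39, 9.38 and 9.40 against 9.81, 9.93, 9.80 and 9.78. Both were separate from the primary arrays without passing the test, with log2 fold changes of -0.60 ± 0.19 and -0.44 ± 0.15 and adjusted p of 0.062 and 0.0747 in limma. The 3 residual values of Psmc5 had an SD of 0.0070, the lowest of any member in that group. Psmc2 read 9.62, 9.74 and 9.47 on residual arrays, against 9.65, 9.86, 9.72 and 9.83 on primary arrays. Its groups overlapped and its log2 fold change was -0.15 ± 0.13 (adjusted p = 0.502, limma). Psmc1 and Psmc3 had -0.28 and -0.32.

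Of the core particle, 0 of 14 genes were called, where 7.61% of all genes fell and 4.81% rose. Psma5, Psma8 and Psmb11 of these were at background. All residual arrays lay below all primary arrays for 8 of the 11 core genes above background, and for 15 of 20 regulatory particle genes. They did so for 13.7% of all genes, and for 3088 of the 13712 genes above the olfactory range. In the alpha ring Psma7 read 11.16, 11.18 and 11.25 on residual arrays, against 11.56, 11.70, 11.46 and 11.39 on primary arrays. Psma1 read 8.95, 8.92 and 9.18 against 9.42, 9.79, 9.38 and 9.38, and Psma4 read 8.80, 9.30 and 8.97 against 9.55, 10.004, 9.61 and 9.34, in the same order of groups. For all 3 every residual array lay below every primary array. Their log2 fold changes were -0.33 ± 0.12, -0.47 ± 0.17 and -0.60 ± 0.22, with adjusted p of 0.0891, 0.0977 and 0.104 in limma. With arrays scaled to one interquartile range Psma7 was at -0.016 and Psma1 at -0.28. Psma3, which had the largest p of the class, read 7.52, 7.45 and 7.80 on residual arrays, against 7.52, 7.80, 7.80 and 7.83 on primary arrays, and its groups overlapped (log2 fold change -0.15 ± 0.19, adjusted p = 0.693, limma).

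In the beta ring, Psmb6, which carries the caspase-like activity, read 9.94, 10.05 and 9.79 on residual arrays, against 10.25, 10.40, 10.18 and 10.35 on primary arrays. Psmb7, the trypsin-like subunit, read 10.69, 10.45 and 10.72 against 10.95, 11.13, 10.85 and 11.04. The structural subunit Psmb1 read 10.66, 10.31 and 10.58 against 10.78, 11.13, 10.87 and 10.76. All 3 were lower on every residual array, with log2 fold changes of -0.37 ± 0.12, -0.37 ± 0.12 and -0.37 ± 0.14 and adjusted p of 0.0631, 0.0769 and 0.123 in limma. These became -0.12, -0.091 and -0.096 with arrays scaled to one interquartile range. Psmb4 had the narrowest spread of the 5 beta ring genes above background, with group means of 11.08 ± 0.06 on residual and 11.28 ± 0.07 on primary arrays (SD, n = 3 and 4) and a log2 fold change of -0.20 (adjusted p = 0.25, limma).

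Among the activators, Psme3, which forms the nuclear cap, read 8.49, 8.59 and 8.57 on residual arrays, against 9.02, 8.96, 8.69 and 9.02 on primary arrays. Psme1, which with Psme2 forms the cap induced by interferon gamma, read 9.34, 9.28 and 8.78 against 9.64, 9.90, 9.64 and 9.56. Neither overlapped, with log2 fold changes of -0.37 ± 0.12 and -0.55 ± 0.19 and adjusted p of 0.0769 and 0.0924 in limma. Scaling to one interquartile range put them at -0.21 and -0.35. The partner of Psme1, Psme2, read 7.04, 6.12 and 6.79 on residual arrays, against 6.92, 7.19, 6.77 and 6.77 on primary arrays, so that residual 1 was above 3 of the 4 primary arrays and residual 2 far below all. Psme4, a large single-chain activator, read 7.79, 7.96 and 7.64 against 8.11, 7.90, 8.08 and 8.09, with overlap (adjusted p = 0.36, limma).

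**Figure D2:**
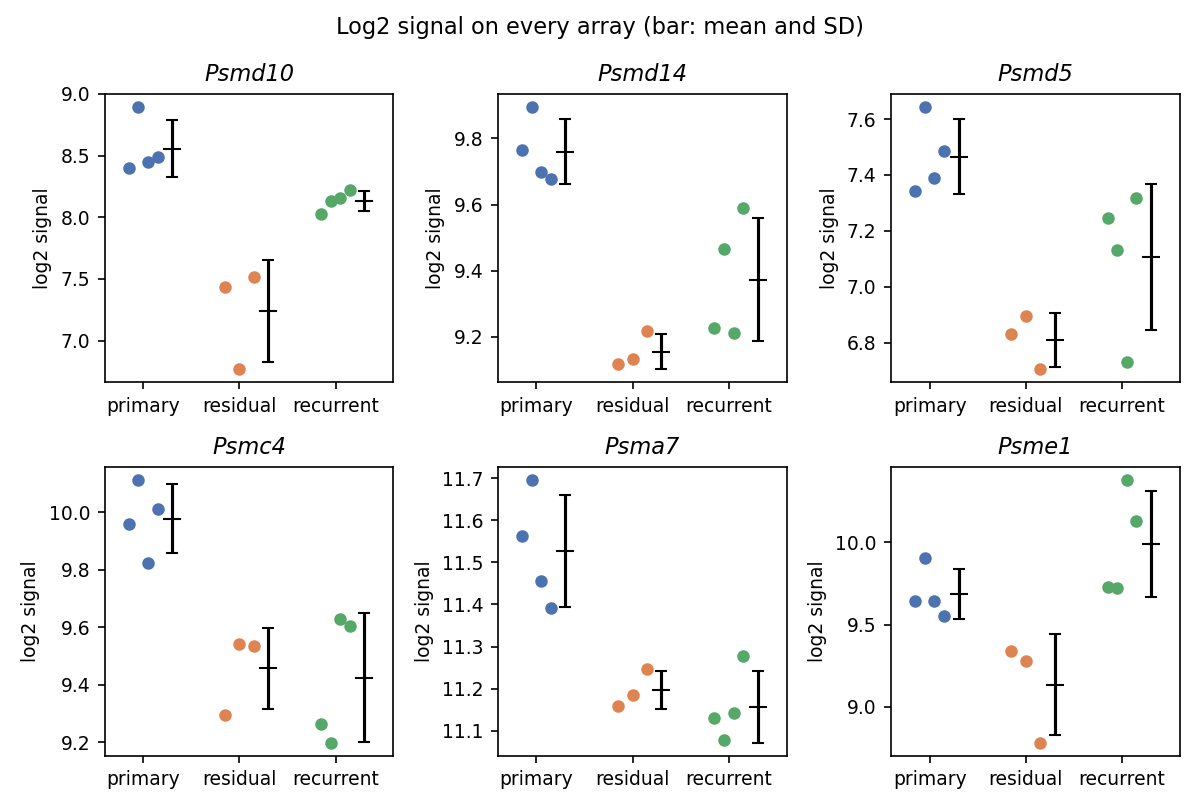
Log2 signal of 6 members on every array (points; vertical axes differ between panels and do not start at 0), with the mean and SD of each group as a black bar (n = 4 primary, 3 residual, 4 recurrent). Psmd10 is lowest on the 3 residual arrays and in between on the recurrent arrays, Psmc4 and Psma7 are about equally low in residual and recurrent cells, and Psme1 is highest in recurrent cells.

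Recurrent cells were set against primary cells to compare growing tumours after doxycycline withdrawal with those on doxycycline. No member was called: 0 of 38 fell and 0 rose, where 0.986% of all genes fell and 0.818% rose. At an unadjusted p under 0.05, 10 of 38 were lower and 0 higher, against 7.70% and 5.87% of all genes. With an intensity trend and robust spread limma called Psma7 and Psmc4 lower, and with arrays centred on their medians Psmc4 alone. All 4 recurrent arrays lay below all 4 primary arrays for 12 of 38 members, where 5.38% of genes did, and above them for Psma8, at background, where 3.64% did. Of the 13712 genes above the olfactory range, the recurrent arrays lay wholly below for 1123 and wholly above for 701. Of the 35 members above background 29 had a log2 fold change below 0, beside 53.7% of the 13712 genes. The comparisons share the primary arrays with the residual ones, so the values of a gene in both are set side by side only.

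The smallest p was that of Psmc4, which read 9.26, 9.20, 9.63 and 9.61 on recurrent arrays, against 9.96, 10.11, 9.82 and 10.01 on primary arrays. Its log2 fold change was -0.55 ± 0.14 (adjusted p = 0.0704, limma), beside -0.52 ± 0.15 in residual against primary cells. Psma7 read 11.13, 11.08, 11.14 and 11.28 on recurrent arrays, against 11.56, 11.70, 11.46 and 11.39 on primary arrays, with a log2 fold change of -0.37 ± 0.11 (adjusted p = 0.124, limma). This was the one alpha ring gene above background whose recurrent and primary arrays were apart. Psmd2 read 9.20, 9.13, 9.46 and 9.45 against 9.59, 9.62, 9.82 and 9.92, and its residual values were 9.29, 9.33 and 9.40. Psmd14 read 9.23, 9.47, 9.21 and 9.59 on recurrent arrays, against the primary values above, Psmd4 9.54, 9.33, 9.43 and 9.61 against 9.75, 10.09, 9.79 and 9.80, and Psmc3 9.66, 9.89, 9.71 and 10.07 against 10.14, 10.38, 10.19 and 10.14. For these 4 genes every recurrent array lay below every primary array, with log2 fold changes of -0.43 ± 0.12, -0.39 ± 0.12, -0.38 ± 0.12 and -0.38 ± 0.12 and adjusted p of 0.125, 0.146, 0.153 and 0.16 in limma. The other 6 members whose recurrent arrays were all lower were Psmb4, Psmb7, Psmd5, Psmd10, Psmd13 and Psme2, with log2 fold changes from -0.45 (Psmd13) to -0.10 (Psmb4).

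Recurrent cells were set against residual cells to ask which genes differ when growth resumes without doxycycline. Of 38 members 2 rose and 0 fell, where 3.58% of all genes rose and 2.19% fell: Psmd10 and Psme1. Among the 13712 genes above the olfactory range on at least 3 arrays, 6.16% rose and 3.00% fell. At an unadjusted p under 0.05, 12 were higher and 0 lower, against 10.2% and 9.52% of all genes. All 4 recurrent arrays lay above all 3 residual arrays for 7 of 38 members, where 8.18% of genes did: Psma2, Psmb6, Psmc5, Psmd10, Psmd12, Psme1 and Psme3. They lay below for 0 of 38, where 7.32% of genes did. Of the 13712 genes, the recurrent arrays lay wholly above for 1805 and wholly below for 1071. The median log2 fold change of the 35 members above background was 0.21, against 0.03 for the 13712 genes, and 7 of 35 were below 0, beside 46.4% of those genes. With arrays scaled to one interquartile range the members' median was 0.04 and 15 of 35 were below 0. Quantile-normalized again 12 were below 0, without recurrent 4 it was 11, and without recurrent 1 it was 4.

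Psmd10 read 8.03, 8.13, 8.15 and 8.22 on recurrent arrays, against 7.43, 6.77 and 7.52 on residual arrays, with a log2 fold change of 0.89 ± 0.19 (adjusted p = 0.0179, limma). The recurrent arrays were close together and lay wholly between the residual and the primary arrays. Psme1 read 9.73, 9.72, 10.38 and 10.13 on recurrent arrays, against 9.34, 9.28 and 8.78 on residual arrays, with 0.86 ± 0.19 (adjusted p = 0.0255, limma). Recurrent 3 and 4 were the highest of its 11 arrays. Leaving out residual 3, recurrent 3 or recurrent 4 left Psmd10 as the only member called, and leaving out recurrent 2 gave 4 calls, with Psma2 and Psmc6 added.

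The other members by rule were not called. Psma2 read 9.05, 8.99, 9.62 and 10.06 on recurrent arrays, against 8.59, 8.61 and 8.69 on residual arrays, and the recurrent values spanned over 1 log2 unit. Psmb6 read 10.23, 10.26, 10.34 and 10.39 against 9.94, 10.05 and 9.79, and Psme3 8.87, 8.87, 9.10 and 8.87 against 8.49, 8.59 and 8.57. For these 3 genes the groups were apart, with log2 fold changes of 0.80 ± 0.24, 0.37 ± 0.12 and 0.38 ± 0.12 and adjusted p of 0.0772, 0.0899 and 0.11 in limma. Scaling to one interquartile range put Psmb6 at 0.17 and Psme3 at 0.23. Psmc6 read 9.18, 8.77, 9.47 and 9.64 on recurrent arrays, against 8.93, 8.61 and 8.58 on residual arrays; recurrent 2 overlapped the residual arrays (log2 fold change 0.55 ± 0.19, adjusted p = 0.126, limma). Psmc4 and Psma7 had -0.03 ± 0.15 and -0.04 ± 0.12 in this comparison.

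**Figure D3:**
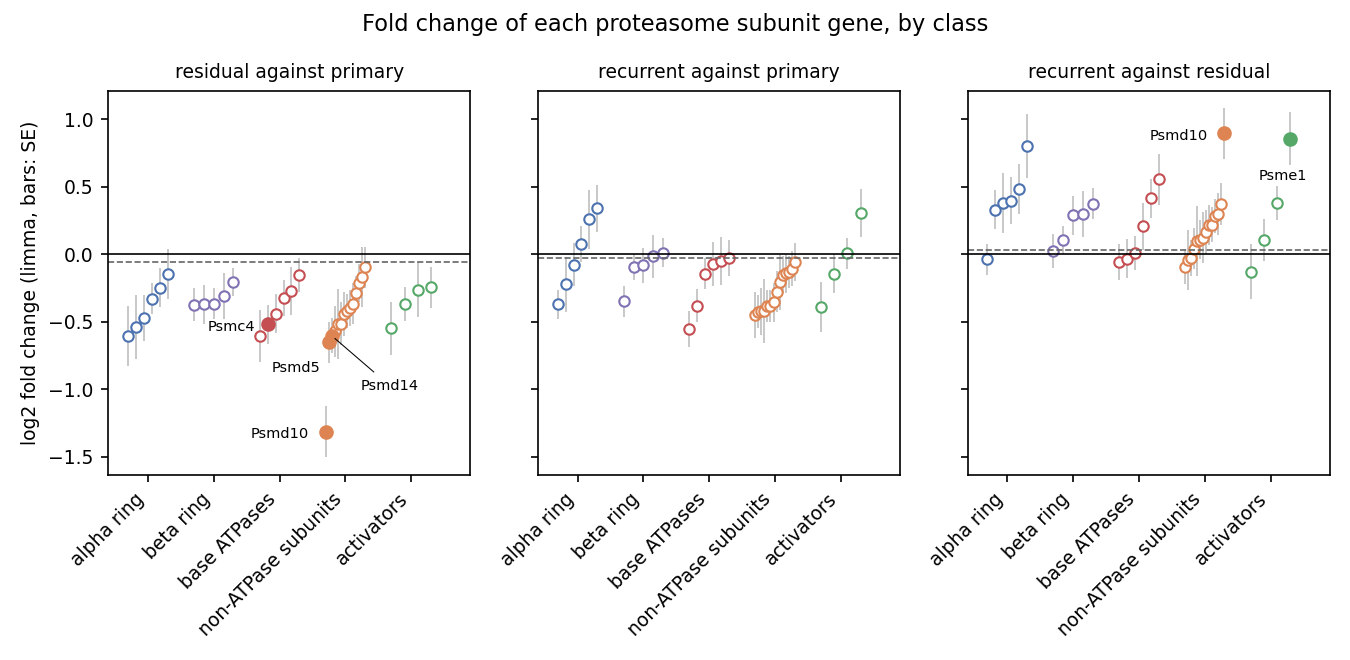
Log2 fold change of each of 35 members by class in the 3 comparisons (circles, with the standard error from limma as a grey bar; filled circles passed an adjusted p under 0.05), sorted within a class; the dashed line is the median of the 13712 genes above the olfactory range. All 35 circles lie below 0 in residual against primary cells; in recurrent against primary cells the base ATPases and non-ATPase subunits lie below 0, and the alpha ring on both sides of it.

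The core particle was then compared with the regulatory particle. Over the 11 Psma and Psmb genes above background and the 20 Psmc and Psmd genes, the mean log2 fold change in residual against primary cells was -0.36 for the core and -0.44 for the regulatory particle. In recurrent against primary cells it was -0.05 for the core and -0.26 for the regulatory particle: 7 of 11 core genes were below 0, and 20 of 20 regulatory genes were. By class the means in that comparison were 0.00 for the alpha ring, -0.11 for the beta ring, -0.20 for the base ATPases and -0.28 for the non-ATPase subunits. In recurrent against residual cells the core had 0.31 and the regulatory particle 0.19. The members were chosen with earlier results known and genes are no replicates, so these means have no test.

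The same difference can be read array by array, as the core's mean shift from the primary mean minus that of the regulatory particle. It was 0.01, 0.05, -0.02 and -0.04 on primary arrays, -0.05, 0.08 and 0.22 on residual arrays, and 0.22, 0.19, 0.22 and 0.20 on recurrent arrays. All 4 recurrent arrays were above all 4 primary arrays and close to each other, and the residual arrays spread over both ranges. The primary group averaged 0.00 ± 0.04, the residual group 0.08 ± 0.13 and the recurrent group 0.21 ± 0.01 (SD, n = 4, 3 and 4). The recurrent minus primary value was 0.184 without the chaperones Psmd5, Psmd9 and Psmd10, 0.166 with medians in place of means, and 0.192 to 0.222 under the other scalings. The residual minus primary value rested on single libraries: it was 0.149 without residual 1, 0.0140 without residual 3, and 0.0155 without the 3 chaperones, and 0.142 with scaling to one interquartile range. The recurrent minus residual value of 0.126 was 0.0603 without residual 1, 0.195 without residual 3 and 0.0809 with that scaling.

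The recurrent arrays differed among themselves. The core's mean shift was -0.23 and -0.18 on recurrent 1 and 2, and 0.07 and 0.13 on recurrent 3 and 4, and the regulatory particle's was -0.45, -0.37, -0.15 and -0.07 in that order. On each recurrent array the regulatory particle was the lower of the pair. Over the 35 members the median SD was 0.14 on primary, 0.15 on residual and 0.23 on recurrent arrays, beside 0.20, 0.24 and 0.27 for the 13712 genes. The widest in recurrent cells was Psma2 (SD 0.51).

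**Figure D4:**
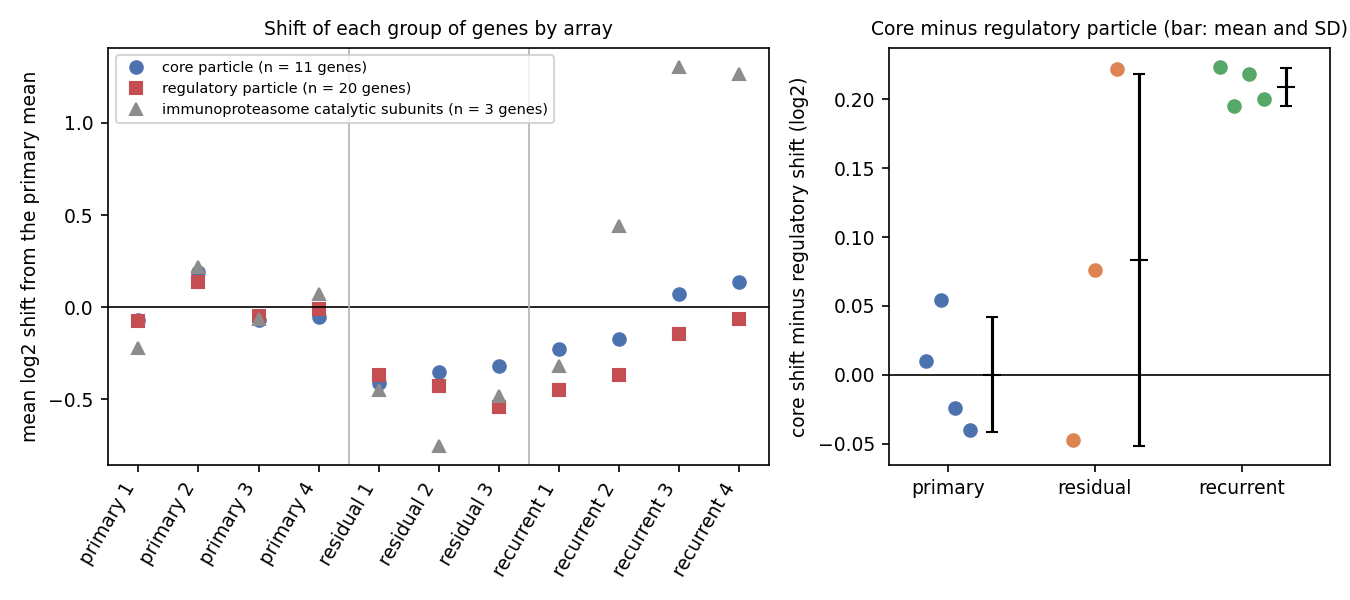
Left, mean log2 shift from the primary mean on each array for 11 core particle genes, 20 regulatory particle genes and 3 immunoproteasome genes; right, core shift minus regulatory shift on each array (points) with the mean and SD of each group (n = 4, 3 and 4). Both particles are low on all residual arrays, and the difference between them is 0.19 to 0.22 on all recurrent arrays against -0.04 to 0.05 on primary arrays.

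The immunoproteasome subunits, which replace the catalytic beta subunits in cells exposed to interferon gamma, had their highest values on recurrent 3 and 4, as the activator Psme1 did. Psme2, the partner of Psme1, did not: it read 6.42, 6.68, 6.56 and 6.42 on recurrent arrays, all below the primary arrays. Psmb9 read 9.25, 9.87, 10.56 and 10.65 on recurrent arrays, against 8.62, 8.60 and 8.77 on residual arrays, a log2 fold change of 1.42 ± 0.32 (adjusted p = 0.0234, limma). Psmb8 read 6.75, 7.96, 8.94 and 8.87 against 7.26, 6.67 and 6.85, and Psmb10 8.58, 9.03, 9.97 and 9.82 against 8.32, 8.01 and 8.48. On recurrent 1 Psmb8 lay below 2 of the 3 residual arrays and Psmb10 just above them, and neither gene was called (log2 fold changes 1.20 ± 0.42 and 1.08 ± 0.29, adjusted p = 0.135 and 0.0542, limma). Against primary cells 0 of 3 were called in either group. The mean shift of the 3 genes from the primary mean was -0.45, -0.75 and -0.48 on residual arrays and -0.32, 0.44, 1.30 and 1.26 on recurrent arrays.

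The proteasome is built with the help of dedicated chaperones that leave the finished particle. Of 5 assembly chaperones measured 4 fell and 0 rose in residual against primary cells, with a median log2 fold change of -0.79. Pomp, which completes the core particle, read 9.27, 9.02 and 9.40 on residual arrays, against 10.07, 10.29, 10.04 and 9.99 on primary arrays (-0.87 ± 0.13, adjusted p = 0.00154, limma). Psmg4, Psmg3 and Psmg2, which assemble the alpha ring, had log2 fold changes of -0.83, -0.69 and -0.79 (adjusted p = 0.00848, 0.0147 and 0.0183, limma). In recurrent against residual cells Psmg4, Psmg2 and Pomp rose, by 1.61, 0.83 and 0.65 on the log2 scale, where 3.58% of all genes rose. Psmg4 also rose in recurrent against primary cells: it read 7.57, 7.98, 8.05 and 8.21 on recurrent arrays, against 7.09, 7.38, 7.005 and 7.20 on primary arrays (0.78 ± 0.16, adjusted p = 0.0321, limma). Sem1, a small regulatory particle subunit outside the symbol rule, was not called (-0.26 in residual against primary cells), and Adrm1 was not analysed here.

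Of 13 proteins that bind the proteasome 4 fell and 0 rose in residual against primary cells (median -0.44). Among those that fell were Ubqln1 (-0.79, adjusted p = 0.00277, limma) and Ubqln4 (-0.81, adjusted p = 0.00284, limma), which shuttle ubiquitinated proteins, and the inhibitor Psmf1. The deubiquitinases Usp14 and Uchl5 had -0.42 and -0.61 and were not called. Of 10 genes of the ubiquitin and p97 list 2 fell and 0 rose, beside the same shares of all genes. These were Rps27a, which encodes ubiquitin fused to a ribosomal protein, and the p97 cofactor Faf1 (-0.55). Rps27a read 4.08, 3.64 and 3.45 on residual arrays, inside the olfactory range, so no size is given. Uba1, which activates ubiquitin, had -0.34 and Vcp, the p97 segregase, -0.13, neither called.

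The genes listed for the Nrf1 axis had no common direction. Nrf1 raises proteasome genes when the protease is inhibited, but the list also holds genes that turn Nrf1 over and the gene of Nrf2. In residual against primary cells 1 of 10 genes rose and 3 fell, with a median of 0.06. Of all genes 4.81% rose and 7.61% fell. Nfe2l1, which encodes Nrf1, read 9.32, 9.05 and 9.13 on residual arrays, against 9.01, 8.65, 8.84 and 8.99 on primary arrays (0.29 ± 0.13, adjusted p = 0.175, limma). It was not called, though every residual array lay above every primary array, as for 11.1% of all genes. Its processing enzymes Ddi2 and Ngly1 had -0.03 and 0.21. Sel1l, of the endoplasmic reticulum ubiquitin ligase that turns Nrf1 over, rose (0.65, adjusted p = 0.0106, limma). Nfe2l2, which encodes Nrf2, fell (-0.88, adjusted p = 0.021, limma), as did Maff (-0.89) and Keap1 (-0.72). In both comparisons of recurrent cells 0 of the 10 list genes were called, where 1.80% of all genes were against primary and 5.78% against residual cells.

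Other protein complexes give a scale for these changes. Of all genes 7.61% fell and 4.81% rose in residual against primary cells, and 3.58% rose in recurrent against residual cells. All 8 subunits of the CCT chaperonin, which folds actin and tubulin, fell in residual against primary cells (median -0.91), and 6 of 8 rose in recurrent against residual cells. Of 12 subunits of the translation factor eIF3 9 fell (median -0.59), and of 10 subunits of the COP9 signalosome, whose architecture resembles the proteasome lid, 5 fell (median -0.48). For these 3 complexes 0 rose in residual and 0 were called in recurrent against primary cells. All 16 mitosis genes fell, several of them into the olfactory range, and all 16 rose in recurrent against residual cells. Of 11 atrophy and autophagy genes, Fbxo32 (1.74), a ubiquitin ligase of muscle atrophy, and the autophagosome genes Map1lc3b (0.71) and Gabarapl1 (0.49) rose in residual cells and Ctsl (-0.76) fell. Whether the proteasome genes differ from these complexes was not tested.

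**Figure D5:**
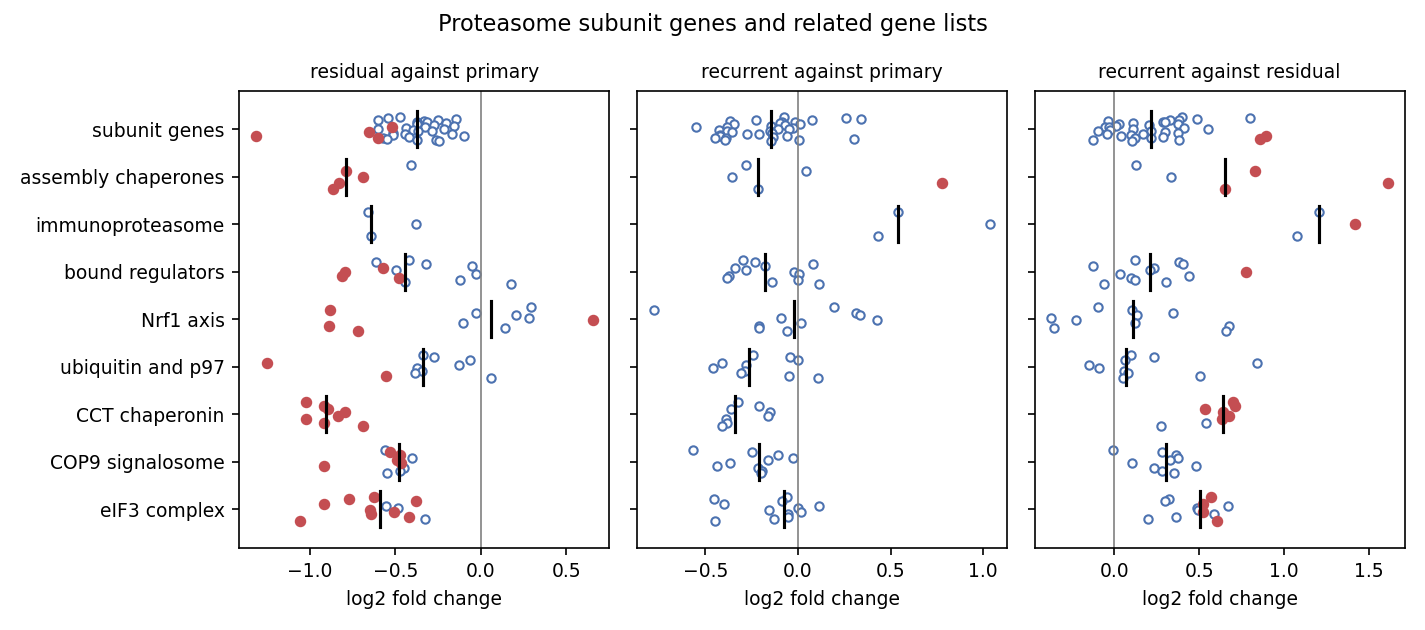
Log2 fold changes of the 35 proteasome subunit genes and of 8 related gene lists (circles; filled red, adjusted p under 0.05 in limma; black bar, median of the list) in the 3 comparisons; horizontal axes differ between panels. In residual against primary cells the medians of the subunit genes, assembly chaperones, CCT chaperonin, COP9 signalosome and eIF3 complex are all below 0 and that of the Nrf1 axis is at 0.06; in recurrent against primary cells the single filled circle is Psmg4.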

How the data were processed

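Values were the log2 signals that the authors deposited for 11 arrays, 1 probe set per Entrez Gene identifier (24479 probe sets). Per the submitters' processing notes, RMA and R 3.0.2 were used. RMA subtracts background, quantile-normalizes and joins the probes of a set. Sources used here do not state the version of the probe annotation. Values were used as deposited. RMA compresses dim signals, so differences of dim genes may be understated.

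Symbols came from the platform's table or, for 556 probe sets, from RefSeq through the Entrez identifier, leaving 23835 named genes. A model with 3 group means was fitted to all 11 arrays with limma 3.58.1 in R 4.3.3 (8 residual and 3.46 prior degrees of freedom), with two-sided moderated tests adjusted by Benjamini-Hochberg over all genes. The number of arrays limits the precision. Steps were tested on simulated data. Of log2 changes of 0.5 added to randomly drawn genes, 2.94% were called in residual against primary cells. The share was 14.7% in recurrent against primary and 8.82% in recurrent against residual cells. Changes of 2 were called in 95.5%, 93.9% and 92.4% of cases, in that order. A member not called may therefore still differ. The drawn genes were not the members, whose shares may be different.

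Values on every array were given for the 3 members of each class with the smallest p and the one with the largest p in residual against primary cells, for the 6 with the smallest p in each other comparison, and for members at background. Psmd7 and Psmd9, also given by array, and Psmf1, Faf1, Maff, Keap1 and other list genes beyond the 3 smallest p of a list were chosen after their values were seen. The members, lists and tests were chosen with earlier results of these data known. The values of 1 list gene are not reported here. Promoter windows used the 34 annotated starts of 31 members. Figures used matplotlib 3.10.9 in Python 3.11.15.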

Additional observations from a re-analysis of the deposited data

Results flagged for a closer look

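Dixon's ratio, the gap of an extreme array to its nearest neighbour over the range of its group, passed its 95% critical value in 10 of 76 groups of 4 arrays, where chance flags about 1 in 20. Primary 2 was far above the other primary arrays for Psma1 (9.79), Psmb4 (11.4), Psmc1 (10.5), Psmd4 (10.1) and Psmd12 (10.3), and far below them for Psme4 (7.90). Over the 35 members above background the mean shift of primary 2 from the primary mean was 0.15, and the members' median log2 fold change in residual against primary cells was -0.34 without it. Psma3 was low on primary 1 (7.52). Psme3 was high on recurrent 3 (9.10), where the other 3 recurrent arrays all read 8.87. Psma8, at background, was low on primary 3 (2.35) and high on recurrent 2 (2.90), where the other 3 recurrent arrays all read 2.70. In these 2 recurrent groups the 3 values were tied, so the ratio is 1 whatever the other array reads. The chance rate of 1 in 20 does not apply to them. The causes were not tested.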

How the results depend on the processing

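The number of members called lower in residual against primary cells was 4, and 8 in a fit on only those arrays, 14 with arrays centred on their medians, 7 with dim genes left out, 10 with an intensity trend and robust spread, 2 with arrays scaled to one interquartile range, 2 at an adjusted p under 0.01, and 2 to 6 leaving out 1 array each (2 without residual 3). For recurrent against primary cells 0 became 1 with centring and 2 with the intensity trend, and stayed 0 leaving out 1 array each. For recurrent against residual cells 2 became 0 in a fit on only those arrays and at an adjusted p under 0.01, 1 with scaling to one interquartile range, and 1 to 4 leaving out 1 array each (1 without residual 3, recurrent 3 or recurrent 4, and 4 without recurrent 2). The cause was not tested, but dropping dim genes tests fewer genes and the stricter threshold calls fewer. With the replicate number as a block there were 3, 0 and 0 calls in the 3 comparisons. The numbers gave no sign of pairing: deviations from group means correlated at -0.08 to 0.02 over 10 same-numbered pairs and -0.06 to 0.08 over 30 others. A pairing that leaves no shared deviation would not be seen this way.

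Psmd10 stayed called in residual against primary cells in 19 of 19 alternatives, Psmd14 in 18, Psmd5 in 17 and Psmc4 in 9. In recurrent against residual cells Psmd10 stayed called in 16 of 19 and Psme1 in 12. Of the 35 members above background, the number below 0 went from 35 to 30 with scaling to one interquartile range in residual against primary cells, ran from 24 to 31 around 29 in recurrent against primary cells, and ran from 4 to 15 around 7 in recurrent against residual cells. Signs were followed for the genes given by array under the rule, each in the comparison that chose it. Those that turned sign were uncalled ones in residual against primary cells. Psmd7, given beyond the rule, was at 0.02 there without residual 3. With scaling to one interquartile range Psmb11 was at -0.028, Psmc2 at 0.066 and Psmd11 at 0.053 on the log2 scale. Quantile-normalized again, Psmc2 was at 0.012 and Psmd11 at 0.046. Leaving out 1 array each, Psmd11 ran from -0.21 (without residual 1) to 0.0077 (without residual 3) and Psme2 from -0.46 (without residual 1) to 0.0026 (without residual 2). Signals near the olfactory range cannot show a change, which leaves Psma5, Psma8 and Psmb11 without a reading.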
